A study of Rattus norvegicus with 43 samples.

Results

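The guanylin axis of the distal colon was followed through 7 genes: the ligands Guca2a (guanylin) and Guca2b (uroguanylin), their receptor Gucy2c, the kinase gene Prkg2, and the transporters Cftr, Slc12a2 and Slc9a3. They were chosen by symbol, taking the probe set with the highest mean over 43 arrays, and each symbol had 1 probe set. All 7 were among the 14506 symbols on the array, and 6 were among the 10879 genes tested. Prkg2 lay below the floor on low signal and was left out of the tests.

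Guanylin and uroguanylin are small peptides that epithelial cells release into the gut lumen. They bind guanylyl cyclase C, the product of Gucy2c, which makes cyclic GMP inside the cell. Cyclic GMP activates cyclic GMP-dependent kinase II, the product of Prkg2, which opens the apical chloride channel CFTR and inhibits the sodium-proton exchanger NHE3, the product of Slc9a3. The cotransporter NKCC1, the product of Slc12a2, loads chloride into the cell from the blood side. Chloride leaving through CFTR draws sodium and water into the lumen, and NHE3 takes sodium and water up.

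RNA came from the distal colon of Sprague Dawley rats aged 11 weeks, 1 rat per array, with 100 ng of total RNA in each labelling. The diets were high-amylose wheat (HAW, 8 rats), low-amylose wheat (LAW, 6 rats), butyrylated high-amylose maize starch (HAMSB, 9 rats), high-amylose maize starch (HAMS, 8 rats), low-amylose maize starch (LAMS, 7 rats) and a control diet (CON, 5 rats). The labels give the diets as codes, and HAM in the labels was read as HAMS; the meaning of the codes, and that HAW, LAW, HAMSB, HAMS and LAMS were Western-type diets, was taken from knowledge of the study and not from the labels. High-amylose starch is partly undigested when it reaches the colon, where butyrylated starch releases its bound butyrate.

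The ligand genes are neighbours on rat chromosome 5 and are read towards each other, with 7871 bases and 0 other RefSeq genes wholly between them. The 250 bases before each start are shown because both ligands were highest in HAMSB while they varied separately from rat to rat. Both sequences were taken from RefSeq, assembly GRCr8, and are written 5′ to 3′ along the gene's own strand. Capitals mark 2 motifs, searched on both strands and chosen after these windows had been read. The longer is the palindrome of HNF1-type binding sites, GTTANT followed after 1 base by its reverse complement ANTAAC, 13 bases in all, and the shorter is GTTAAT, 1 form of its 6-base arm.

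Guca2a, chr5:138522196-138522445, plus strand: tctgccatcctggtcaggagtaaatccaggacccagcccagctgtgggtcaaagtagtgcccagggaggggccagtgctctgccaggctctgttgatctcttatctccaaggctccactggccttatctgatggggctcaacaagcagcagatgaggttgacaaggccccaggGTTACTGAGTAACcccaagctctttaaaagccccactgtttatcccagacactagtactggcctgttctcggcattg

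Guca2b, chr5:138534211-138534460, minus strand: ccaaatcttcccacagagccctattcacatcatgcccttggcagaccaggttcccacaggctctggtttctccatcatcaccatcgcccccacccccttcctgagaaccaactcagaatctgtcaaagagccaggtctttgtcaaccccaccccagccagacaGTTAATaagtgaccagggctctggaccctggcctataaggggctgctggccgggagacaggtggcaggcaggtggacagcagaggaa

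Guca2a held 1 match to the palindrome, from 77 to 65 bases before the start. The palindrome occurred in 0.0299% of the 33469 promoter windows of the same length, 10 windows in all. Guca2b held 1 match to the 6-base arm, from 87 to 82 bases before the start, and that arm occurred in 6.45% of the windows. A match describes letters and does not show that a factor binds.

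All values are RMA signals on the log2 scale, and differences are log2 differences with their standard error from limma. Of 17 epithelial markers 15 were on the array, with means between 8.50 and 12.40. The list is pan-epithelial, so it cannot tell the distal colon from another epithelium. B cell markers varied between rats: the mean level of 10 tested B cell markers was between 5.44 and 6.04 on 25 arrays, between 6.57 and 7.63 on 5 and between 8.07 and 9.29 on 13. Its median was 8.34 in HAMS (range 5.56 to 9.29), against 5.56 in LAMS (5.44 to 8.76). The epithelial level averaged 10.28 in HAMS, against 10.62 in LAMS. Sample names came in 3 styles (diet code first, number first, lower case) that followed diet in part: 3 of 8 HAW arrays, 1 of 6 LAW arrays, 5 of 9 HAMSB arrays, all 8 HAMS arrays, 3 of 7 LAMS arrays and no CON array had the diet code first. HAW replicate 8 and HAMS replicate 6 had the narrowest spread of values over the array, with interquartile ranges of 2.68 and 2.72, against 2.95 to 3.40 on the other arrays.

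Over the 6 diets, 5 of the 6 tested genes differed in the F test, where 30.8% of all genes tested did. The adjusted p was 0.000706 for Guca2b, which had rank 18 by p among all genes tested, 0.00363 for Slc12a2, 0.00867 for Gucy2c, 0.0193 for Guca2a and 0.0426 for Cftr. Slc9a3, with an adjusted p of 0.0803, did not pass. Of the 15 pairs of diets, Slc12a2 differed in 7, Gucy2c in 5, Guca2b in 4, Guca2a and Cftr in 3 each, and Slc9a3 in 1. The ligands stood out on the high side in HAMSB, and the receptor and the chloride transporters on the low side in HAMS; Slc12a2 was low in both.

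Guca2b was highest in rats fed HAMSB. Its signal in HAW ran from 7.49 through a median of 7.92 to 8.71. In LAW it ran from 7.59 through 8.04 to 8.80. In HAMSB it ran from 8.76 through 9.19 to 9.72, which lies above every HAW array. In HAMS it ran from 7.44 through 8.30 to 8.95, and in LAMS from 7.62 through 7.83 to 9.05. The 5 CON arrays had 8.50, 8.88, 8.59, 8.31 and 8.70. All 9 HAMSB arrays lay above the LAMS median, 6 of them above the highest LAMS array, and 7 above the highest CON array. In the order of diet means, HAMSB at 9.17 ± 0.31 (SD, n = 9) was followed by CON at 8.60 ± 0.22 (n = 5), HAMS at 8.18 ± 0.55 (n = 8), LAW at 8.08 ± 0.48 (n = 6), LAMS at 8.01 ± 0.49 (n = 7) and HAW at 7.98 ± 0.41 (n = 8). No neighbours in that order differed past the threshold in limma, HAMSB minus CON included, with adjusted p from 0.157 to 1.

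Guca2a was also highest in HAMSB, with more overlap. Its signal ran from 10.57 through 10.77 to 11.37 in HAW and from 10.10 through 11.18 to 11.31 in LAW. In HAMSB it ran from 11.11 through 11.63 to 11.78. In HAMS it ran from 10.38 through 10.72 to 11.28, and in LAMS from 10.12 through 11.06 to 11.53. The 5 CON arrays had 10.82, 11.09, 11.28, 11.32 and 10.97. All 9 HAMSB arrays lay above the medians of HAMS, LAMS and CON, and 5 above the highest array of each. The LAMS arrays divided by name style: 3 with the diet code first lay between 11.29 and 11.53, and 4 in lower case between 10.12 and 11.06. The same 3 arrays had B cell marker levels of 5.44 to 5.51, against 5.56 to 8.76 in the other 4; the part of either in the level of Guca2a was not tested. Diet means ran from 11.48 ± 0.27 in HAMSB through CON, LAMS, HAW and LAW to 10.75 ± 0.31 in HAMS, and no neighbours in that order differed past the threshold in limma (adjusted p 0.265 to 1).

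**Figure D1:**
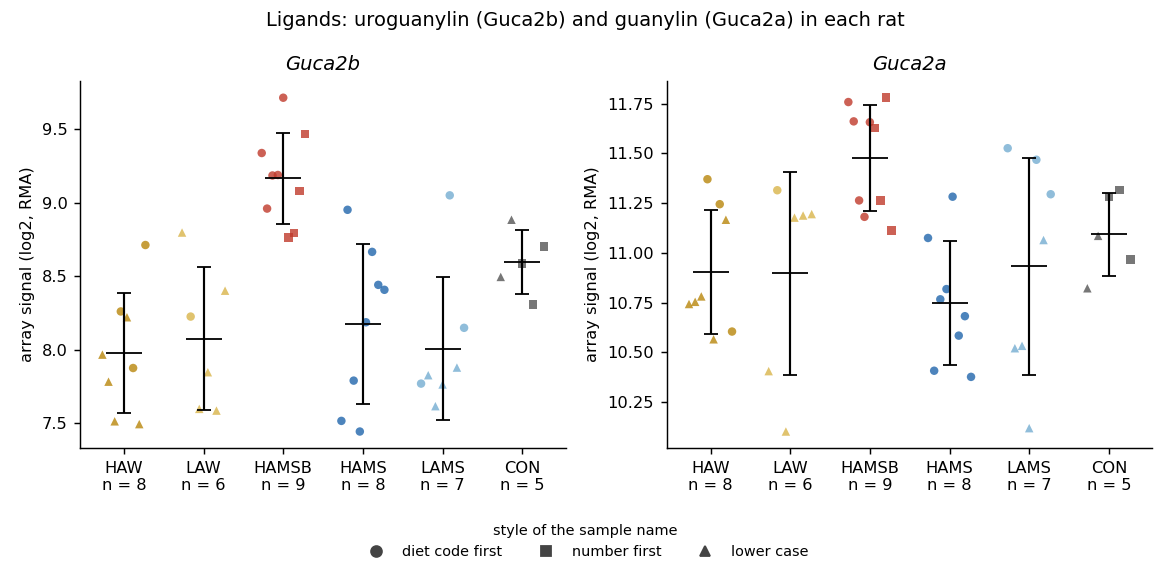
Array signal (log2, RMA) of Guca2b on the left and Guca2a on the right in each of the 43 rats by diet; bars are the mean ± SD, and the marker shape is the style of the sample name. The 9 HAMSB rats lie between 8.76 and 9.72 for Guca2b, above all 8 HAW rats, and between 11.11 and 11.78 for Guca2a, where they overlap every other diet.

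Gucy2c, the receptor, was lowest in HAMS. Its signal ran from 9.04 through a median of 10.03 to 10.31 in HAW, from 9.61 through 10.16 to 10.27 in LAW and from 9.51 through 9.80 to 9.96 in HAMSB. In HAMS it ran from 8.29 through 9.24 to 9.99, and in LAMS from 9.47 through 9.97 to 10.19. The 5 CON arrays had 10.06, 10.12, 9.88, 9.60 and 9.49. Of the 8 HAMS arrays, 5 lay below the lowest LAMS array and 5 below the lowest CON array. The other 5 diet means lay between 10.04 ± 0.27 in LAW and 9.79 ± 0.17 in HAMSB, and the step in the order that passed was HAMSB minus HAMS.

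Prkg2, the gene of cyclic GMP-dependent kinase II, was near the bottom of the scale in every diet. Its signal ran from 3.36 to 4.63 over the 43 arrays, and its diet means from 3.67 in HAMS, LAMS and CON to 3.87 ± 0.42 in LAW. With no filter on low signal its adjusted p was 0.846 in the limma F test. At this signal a difference between diets was not detectable.

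Cftr, the apical chloride channel, was lowest in HAMS as well. It ran from 6.49 through a median of 7.55 to 7.82 in HAW, from 6.43 through 7.77 to 8.19 in LAW and from 6.85 through 7.24 to 7.59 in HAMSB. In HAMS it ran from 6.21 through 6.56 to 7.43, and in LAMS from 6.86 through 7.60 to 8.00. The 5 CON arrays had 7.89, 7.52, 7.08, 7.03 and 6.96. The HAMS arrays fell into 3 with 7.33 to 7.43 and 5 with 6.21 to 6.68, and those 5 all lay below the lowest LAMS array. No neighbours in the order of diet means differed past the threshold in limma, the last step, HAMSB minus HAMS, included (adjusted p 0.0784).

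Slc12a2, the chloride loader, was low in both HAMSB and HAMS. It ran from 9.95 through 10.83 to 11.06 in HAW, from 10.04 through 10.79 to 11.17 in LAW and from 9.77 through 10.11 to 10.70 in HAMSB. In HAMS it ran from 9.34 through 10.03 to 10.75, and in LAMS from 10.58 through 10.74 to 10.99. The 5 CON arrays had 10.93, 11.00, 10.70, 10.62 and 10.14. All but 1 of the HAMSB arrays, 8 of 9, and all but 1 of the HAMS arrays, 7 of 8, lay below the lowest LAMS array. The 4 higher diet means lay between 10.67 ± 0.35 in HAW and 10.77 ± 0.13 in LAMS, the 2 lower ones were 10.14 ± 0.32 in HAMSB and 10.06 ± 0.46 in HAMS, and the step between them, HAW minus HAMSB, passed (0.53 ± 0.17, adjusted p 0.0373). Blocking on name style ended that call (0.37, adjusted p 0.318).

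Slc9a3, the sodium-proton exchanger NHE3, varied most among rats of 1 diet. Its SD within diets was 0.84, larger than that of 98.5% of genes tested, against a median gene of 0.24 and 0.35 to 0.46 for the other 5 tested genes of the axis. It ran from 6.15 through 7.59 to 9.00 in HAW, from 6.31 through 8.03 to 8.77 in LAW and from 6.73 through 7.88 to 9.45 in HAMSB. In HAMS it ran from 5.94 through 6.47 to 7.45, and in LAMS from 6.47 through 7.81 to 8.46. The 5 CON arrays had 7.89, 7.36, 8.46, 7.23 and 8.00. HAMS had the lowest mean, 6.63 ± 0.59, and all 8 HAMS arrays lay below the LAMS and CON medians; the other 5 means lay between 7.63 and 7.94. No neighbours in the order of means differed past the threshold in limma (adjusted p 0.0803 to 1).

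**Figure D2:**
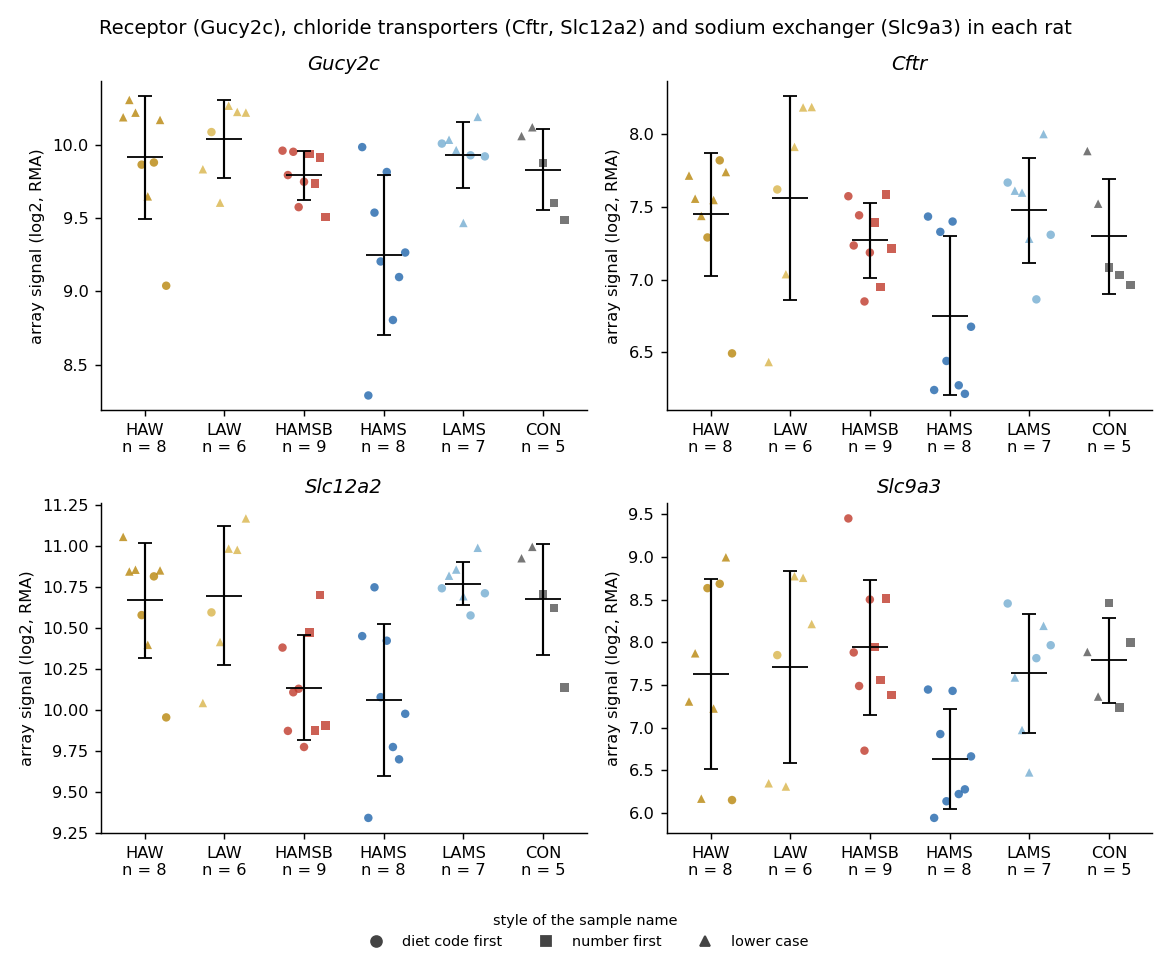
Array signal (log2, RMA) of Gucy2c, Cftr, Slc12a2 and Slc9a3 in each rat by diet; bars are the mean ± SD, and the marker shape is the style of the sample name. HAMS has the lowest mean in all 4 panels, from 6.63 for Slc9a3 to 10.06 for Slc12a2, and for Slc12a2 the HAMSB mean of 10.14 is close to it.

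Butyrylated starch was first set against low-amylose maize starch. Guca2b rose by 1.16 ± 0.21, a 2.23-fold change (95% interval 0.74 to 1.58 on the log2 scale), with an adjusted p of 0.00472 in limma; it had rank 3 by rise and rank 3 by p among all genes tested. Slc12a2 fell by 0.63 ± 0.17 (adjusted p 0.0236). Thus 2 of 6 tested genes of the axis passed, where 6.78% of all genes did. Guca2a had a difference of 0.55 ± 0.18 with an adjusted p of 0.0553, just outside the threshold. Gucy2c (-0.14), Cftr (-0.21) and Slc9a3 (0.30) had intervals that spanned 0. With the B cell level as a covariate Guca2a passed as well (0.49, adjusted p 0.00548), beside Guca2b (1.18, adjusted p 0.00207) and Slc12a2 (-0.68, adjusted p 0.00245). Among the 5 HAMSB and 3 LAMS arrays with the diet code first, the difference of Guca2b was 0.96 with an adjusted p of 0.152, that of Slc12a2 was -0.62 with an adjusted p of 0.241, and that of Guca2a was 0.07. With name style as a block Guca2b stayed past the threshold (1.09, adjusted p 0.00855) and Slc12a2 did not (-0.49, adjusted p 0.151). Leaving out any 1 array left Guca2b past the threshold in 16 of 16 runs and Slc12a2 in 10 of 16, with the highest adjusted p, 0.0618, without HAMSB replicate 5.

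The difference in change between the ligands was tested on the per-array value of Guca2b minus that of Guca2a. It changed by 0.61 in HAMSB minus LAMS, with means of -2.31 ± 0.42 in HAMSB (SD, n = 9) and -2.92 ± 0.49 in LAMS (n = 7) and an exact two-sided permutation p of 0.0181. Adjusted over the 7 pairs tested the p was 0.127. The other 6 pairs, HAW minus HAMS, HAMSB minus HAMS, LAW minus LAMS, LAMS minus CON, HAW minus LAW and HAMS minus LAMS, had adjusted p from 0.433 to 0.77. In these 7 pairs the ligands were not shown to have changed by different amounts, and HAW and LAW minus HAMSB and HAMSB minus CON were not tested in this way.

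Set against the same starch without butyrate, HAMSB had higher levels of both ligands, the receptor and the sodium exchanger. In HAMSB minus HAMS, Guca2b rose by 0.99 ± 0.20 (adjusted p 0.00188), Guca2a by 0.73 ± 0.18 (adjusted p 0.00552), Gucy2c by 0.54 ± 0.16 (adjusted p 0.0214) and Slc9a3 by 1.31 ± 0.39 (adjusted p 0.0191), all in limma. The change of Slc9a3 was 2.48-fold and had rank 5 by rise among all genes tested. These were 4 of 6 tested genes, where 16.8% of all genes passed and 14.3% were higher. Cftr had a difference of 0.52 ± 0.21 (adjusted p 0.0784), and Slc12a2 one of 0.07 ± 0.17, with a 95% interval from -0.26 to 0.41. All 9 HAMSB arrays lay above the HAMS median for Guca2a, Guca2b, Gucy2c and Slc9a3. With the B cell marker level as a covariate, Guca2b kept a difference of 1.10 (adjusted p 0.00541), and the differences of Guca2a (0.38, adjusted p 0.0606), Gucy2c (0.25, adjusted p 0.306) and Slc9a3 (0.66, adjusted p 0.266) no longer passed. With the epithelial marker level as a covariate only Guca2b of these 4 passed (1.24, adjusted p 0.00606), and Guca2a had 0.31 (adjusted p 0.453). Without HAMS replicate 2, which had the highest B cell marker level of all arrays (9.29), the adjusted p was 0.0844 for Gucy2c and 0.0513 for Slc9a3. Of the genes called, 85.2% were higher, against 55.8% with arrays centred on the median, where all 4 still passed.

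High-amylose maize starch without butyrate, set against low-amylose maize starch, went with lower receptor and chloride transporter levels. In HAMS minus LAMS, Slc12a2 fell by 0.71 ± 0.18 (adjusted p 0.0113), Gucy2c fell by 0.68 ± 0.17 (adjusted p 0.013) and Cftr fell by 0.73 ± 0.23 (adjusted p 0.0307) in limma. These 3 of 6 were lower, where 14.1% of all genes passed and 12% were lower. Slc9a3 had the largest difference, -1.01 ± 0.41, with an adjusted p of 0.0838. The ligands had intervals that spanned 0, with 0.17 ± 0.21 for Guca2b and -0.18 ± 0.19 for Guca2a. In a bulk sample, fewer epithelial cells and less RNA per cell cannot be told apart. With the epithelial marker level as a covariate the differences were -0.29 for Gucy2c (adjusted p 0.142), -0.33 for Cftr (adjusted p 0.319) and -0.39 for Slc12a2 (adjusted p 0.134). With the B cell marker level as a covariate Gucy2c (-0.44) and Slc12a2 (-0.49) passed, both with an adjusted p of 0.0334, and Cftr did not (-0.45, adjusted p 0.104). With name style as a block none of the 3 passed (adjusted p 0.0576 for Gucy2c, 0.0638 for Slc12a2 and 0.143 for Cftr). Within the arrays with the diet code first, 8 HAMS and 3 LAMS, the differences were -0.70 for Gucy2c (adjusted p 0.0755), -0.53 for Cftr (adjusted p 0.235) and -0.62 for Slc12a2 (adjusted p 0.0847). Cftr lost its call in 7 of 15 runs that left out 1 array, with adjusted p up to 0.0808, without LAMS replicate 6. Of the genes called, 15.1% were higher, against 51% when each array was centred on its median, where Cftr no longer passed (-0.62, adjusted p 0.0572).

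The same 3 genes separated high-amylose wheat from high-amylose maize starch. In HAW minus HAMS, Gucy2c rose by 0.67 ± 0.17 (adjusted p 0.0129), Cftr by 0.70 ± 0.22 (adjusted p 0.0322) and Slc12a2 by 0.61 ± 0.17 (adjusted p 0.0196) in limma, where 13.4% of all genes passed and 11% were higher. Slc9a3 differed by 1.00 ± 0.40 (adjusted p 0.0803), Guca2a by 0.15 ± 0.18 and Guca2b by -0.20 ± 0.21. This comparison shares the HAMS arrays with HAMS minus LAMS and HAMSB minus HAMS. Among the 3 HAW and 8 HAMS arrays with the diet code first, the differences were 0.35 for Gucy2c, 0.45 for Cftr and 0.39 for Slc12a2, with adjusted p from 0.466 to 0.566. With the epithelial marker level as a covariate none of the 3 passed (adjusted p 0.208 to 0.41). Cftr lost its call in 10 of 16 runs that left out 1 array, with the highest adjusted p, 0.078, without HAMS replicate 6, and Slc12a2 in 2. Of the genes called, 82.3% were higher, against 54.6% with centred arrays.

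**Figure D3:**
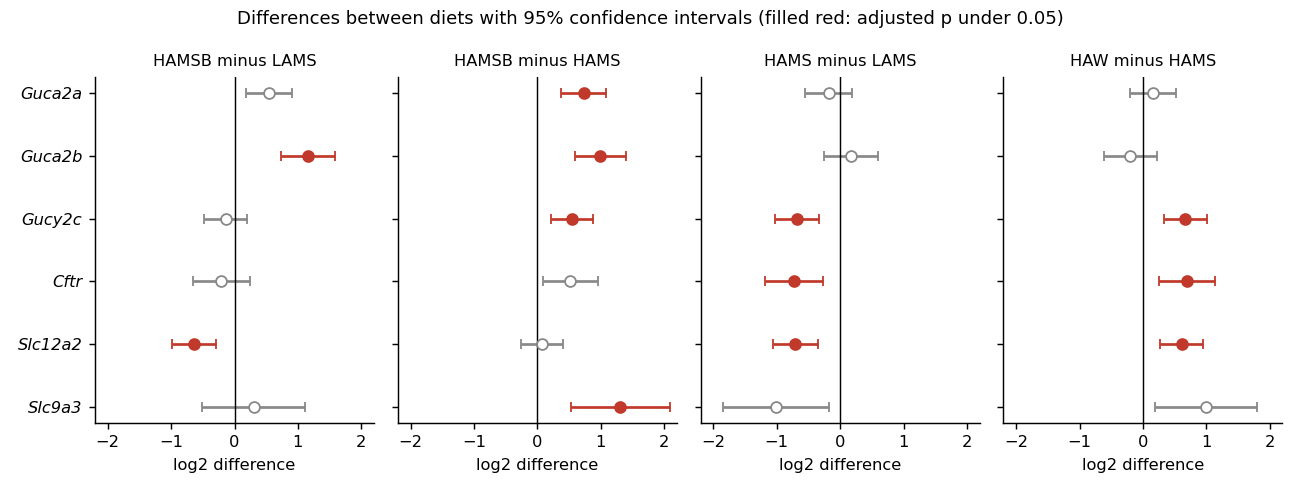
Log2 differences of the 6 tested genes with 95% confidence intervals in 4 comparisons; filled red points passed an adjusted p of 0.05 over all genes tested. Guca2b lies at 1.16 and 0.99 in the comparisons of HAMSB, and Gucy2c, Cftr and Slc12a2 lie between -0.73 and -0.68 in HAMS minus LAMS and between 0.61 and 0.70 in HAW minus HAMS.

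Against both wheats, HAMSB again differed at the ligands and at Slc12a2. Guca2b fell by 1.19 ± 0.20 in HAW minus HAMSB (adjusted p 0.00138) and by 1.09 ± 0.22 in LAW minus HAMSB (adjusted p 0.00236), with rank 3 by fall in both. Guca2a fell by 0.57 ± 0.18 (adjusted p 0.0348) in HAW minus HAMSB and by 0.58 ± 0.19 (adjusted p 0.0316) in LAW minus HAMSB. Slc12a2 was higher in both wheats, by 0.53 ± 0.17 in HAW and 0.56 ± 0.18 in LAW (adjusted p 0.0289). These were 3 of 6 tested genes in each, where 9.28% of all genes passed in HAW minus HAMSB and 17.2% in LAW minus HAMSB. Leaving out any 1 array left Guca2b past the threshold in all 17 runs of the first comparison and all 15 of the second, while Guca2a and Slc12a2 lost their call in 5 to 10 runs of each comparison (adjusted p up to 0.132, for Guca2a without LAW replicate 3). With name style as a block, Guca2b kept its call in HAW minus HAMSB, lost it in LAW minus HAMSB (-0.92, adjusted p 0.0987), and Guca2a lost it in both (-0.32 and -0.22, adjusted p 0.393 and 0.715). Low-amylose wheat differed from HAMS at the same genes as high-amylose wheat, with 0.79 ± 0.18 for Gucy2c (adjusted p 0.00964), 0.81 ± 0.24 for Cftr (adjusted p 0.023) and 0.64 ± 0.18 for Slc12a2 (adjusted p 0.0229), where 14.3% of all genes passed and 12% were higher. Without LAW replicate 5 none of these 3 passed, with adjusted p of 0.0547, 0.0991 and 0.0865. With name style as a block none passed either, with 0.60 for Gucy2c (adjusted p 0.129), 0.52 for Cftr (adjusted p 0.259) and 0.39 for Slc12a2 (adjusted p 0.282). With the epithelial marker level as a covariate Gucy2c passed (0.40, adjusted p 0.0465), and Cftr (0.41, adjusted p 0.172) and Slc12a2 (0.32, adjusted p 0.174) did not. Slc12a2 also lost its call with each array centred on its median (adjusted p 0.0523).

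No difference of the axis was detected between low-amylose maize starch and control. In LAMS minus CON limma called 0 of 10879 genes, 0% of them, and 936 had an unadjusted p under 0.05. Guca2b had the largest difference of the axis, -0.59 ± 0.24, with an unadjusted p of 0.019, an adjusted p of 0.463 and rank 29 by fall. Of the other Western-type diets set against the same 5 CON arrays, HAMS had lower Slc12a2 (-0.62 ± 0.19, adjusted p 0.0191) and Gucy2c (-0.58 ± 0.19, adjusted p 0.0238), where 26.2% of all genes passed and 21.8% were lower. Without CON replicate 1 neither passed (adjusted p 0.0645 and 0.0753). With name style as a block neither passed, with -0.46 for Slc12a2 (adjusted p 0.149) and -0.55 for Gucy2c (adjusted p 0.0858). With the B cell marker level as a covariate the values were -0.34 for Slc12a2 (adjusted p 0.129) and -0.27 for Gucy2c (adjusted p 0.17), and with the epithelial level -0.26 (adjusted p 0.303) and -0.14 (adjusted p 0.464). Neither held when each array was centred on its median (adjusted p 0.0794 and 0.105). Before this step the median difference over all genes in HAMS minus CON was -0.14. The share of higher genes among those called was 62.4% after it, against 16.9%. HAMSB minus CON had 0 of 6 genes past the threshold, where 0.855% of all genes passed, and the values were 0.57 ± 0.23 for Guca2b (adjusted p 0.157) and -0.54 ± 0.19 for Slc12a2 (adjusted p 0.112). For Guca2b the differences from CON were -0.62 ± 0.23 in HAW (adjusted p 0.363), -0.52 ± 0.25 in LAW (adjusted p 0.456), where 0.046% of all genes passed, and -0.42 ± 0.23 in HAMS (adjusted p 0.17).

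High-amylose and low-amylose wheat showed no detectable difference in the axis. In HAW minus LAW limma called 0 genes (0%), with 211 at an unadjusted p under 0.05, and the 6 differences lay between -0.13 for Gucy2c and 0.01 for Guca2a. In LAW minus LAMS it also called 0 genes (0%), with 190 at an unadjusted p under 0.05, and the 6 differences lay between -0.07 and 0.11. HAW minus LAMS was alike, with 0 genes (0%), 108 at an unadjusted p under 0.05 and differences from -0.10 to -0.01. The amylose effect of maize, subtracted from that of wheat, left 0.68 ± 0.26 for Slc12a2 (adjusted p 0.22), 0.56 ± 0.25 for Gucy2c (adjusted p 0.294) and 0.61 ± 0.33 for Cftr (adjusted p 0.354); 0 of 6 passed, where 0.0276% of all genes did. Thus the amylose effects of maize and wheat were not shown to differ at these genes.

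Among rats of 1 diet the axis did not vary as a unit. After the diet means were subtracted, Cftr and Slc12a2 varied together over the 43 arrays (Pearson's r = 0.84, Spearman's rho = 0.85), as did Gucy2c and Slc12a2 (r = 0.81, rho = 0.85) and Gucy2c and Cftr (r = 0.76, rho = 0.81). Each had a permutation p of 1e-05, the smallest that the 100000 resamples can give, and an adjusted p of 5.25e-05 over the 21 pairs of genes. Without the 2 arrays farthest from the median of the first gene, r was 0.83, 0.77 and 0.76. Guca2a varied with Slc9a3 (r = 0.76, rho = 0.76, permutation p 1e-05) and kept an r of 0.72 without the 2 farthest arrays.

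The ligands showed no detectable relation: r between Guca2a and Guca2b was -0.03 (rho = -0.06, permutation p 0.873, adjusted 0.917). Within single diets it ran from -0.60 to 0.55. Guca2b ran against Slc12a2 (r = -0.55, rho = -0.47, adjusted p 0.00173), Cftr (r = -0.50, rho = -0.38, adjusted p 0.00798) and Gucy2c (r = -0.48, rho = -0.38, adjusted p 0.00918) in the permutation test. Without the 2 arrays farthest from the Guca2b median these r were -0.52, -0.50 and -0.47. The highest Guca2b and the lowest Slc12a2 of the diet stood on 1 array in every diet but CON. These were HAW replicate 8 (8.71 and 9.95), LAW replicate 1 (8.80 and 10.04), HAMSB replicate 5 (9.72 and 9.77), HAMS replicate 2 (8.95 and 9.34) and LAMS replicate 5 (9.05 and 10.58). Their B cell marker levels were 8.13 in HAW, 8.76 in LAW, 5.73 in HAMSB, 9.29 in HAMS and 5.44 in LAMS. Without HAW replicate 8 and HAMS replicate 6, the arrays of narrowest spread, r was -0.48 for Slc12a2, -0.41 for Cftr and -0.37 for Gucy2c. With the interquartile range of the array taken out it was -0.42, -0.36 and -0.35.

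**Figure D4:**
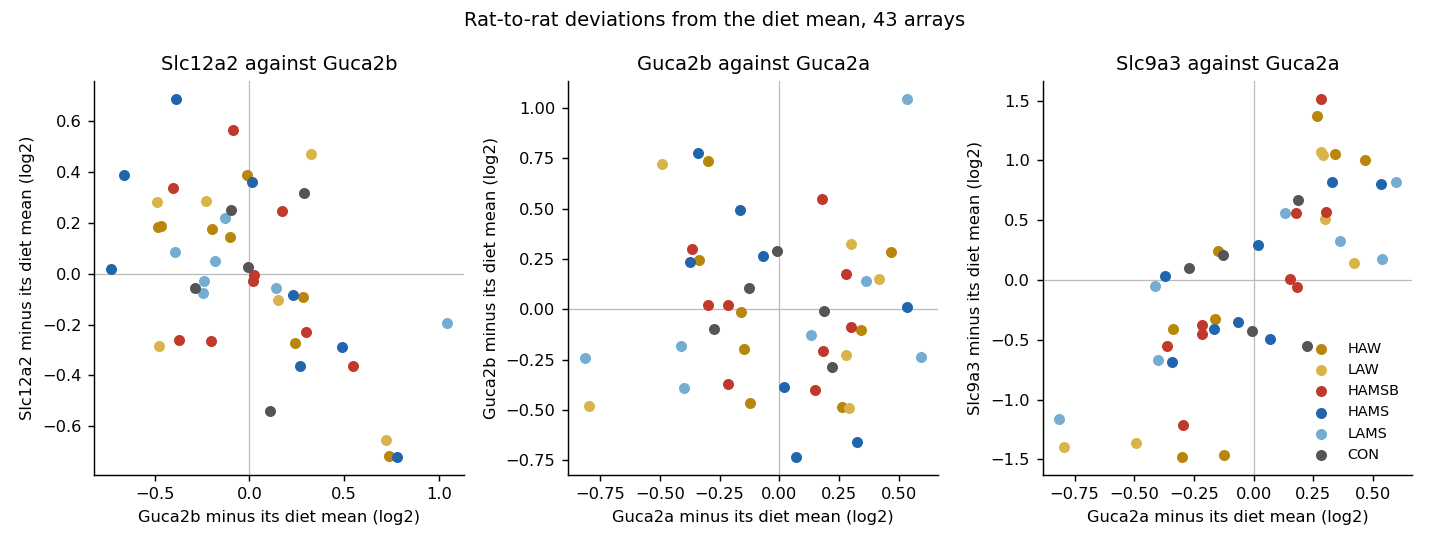
Deviations from the diet mean (log2) on the 43 arrays, coloured by diet: Slc12a2 against Guca2b, Guca2b against Guca2a, and Slc9a3 against Guca2a. The first panel slopes down (r = -0.55), the second shows no slope (r = -0.03) and the third slopes up (r = 0.76).

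The level of epithelial markers moved with 5 of the 6 tested genes within diets. Its r was 0.83 with Gucy2c, 0.71 with Guca2a, 0.66 with Slc12a2, 0.65 with Slc9a3 and 0.64 with Cftr, over 43 arrays, with permutation p from 1e-05 to 7e-05 and rho from 0.58 to 0.71. With Guca2b r was -0.37 (rho -0.32, permutation p 0.0402), and -0.24 without the 2 farthest arrays, where the other 5 genes kept 0.59 to 0.79. Markers of crypt stem and proliferating cells had an r of -0.51 with Guca2b (rho -0.46, permutation p 0.00126, adjusted over the 7 genes 0.0022), 0.35 with Guca2a, 0.73 with Cftr, 0.72 with Gucy2c and 0.70 with Slc12a2. Fibroblast markers showed the same split, with -0.47 for Guca2b (rho -0.45, permutation p 0.00689, adjusted 0.0121), 0.37 for Guca2a, 0.60 for Cftr, 0.67 for Gucy2c and 0.70 for Slc12a2. Guca2a had an r of 0.83 with goblet cell markers and 0.80 with enteroendocrine markers, where Guca2b had -0.13 and -0.15. Markers of enteric neurons and glia showed the same contrast, with 0.71 for Guca2a and -0.09 for Guca2b. With markers of T cells, tuft cells, OTOP2/BEST4-type colonocytes and endothelium Guca2a had -0.76, -0.77, -0.72 and -0.62. Guca2b had 0.24, 0.28, 0.29 and -0.08 with these lists. Of 6 OTOP2/BEST4-type markers 3 were tested, among them Spib, which was also in the B cell list. Of 7 tuft cell markers 4 were tested. The part of the B cell level in the r with these 2 lists was not tested. With smooth muscle markers r was 0.35 for Guca2a and -0.29 for Guca2b. With the epithelial level taken out, r stayed at 0.73 for Cftr and Slc12a2, 0.62 for Gucy2c and Slc12a2 and 0.57 for Guca2a and Slc9a3. That of Guca2b with Slc12a2 was -0.44. For Gucy2c and Slc9a3 r went from 0.56 to 0.05, and for Slc12a2 and Slc9a3 from 0.49 to 0.11. For Guca2a it went from 0.50 to -0.24 with Gucy2c, from 0.42 to -0.07 with Cftr and from 0.40 to -0.14 with Slc12a2. The B cell marker level fell into separate ranges, so r over all arrays also sets the low range against the high one. Over the 43 arrays, r with this level was -0.82 for Guca2a, -0.73 for Gucy2c, -0.68 for Slc9a3, -0.65 for Slc12a2, -0.63 for Cftr and 0.22 for Guca2b. Within the 25 arrays of low level, r of the 6 tested genes with it lay between -0.13 and 0.38, and within 11 of the 13 arrays of high level, those in diets with at least 2 such arrays, between -0.41 and 0.18.

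**Figure D5:**
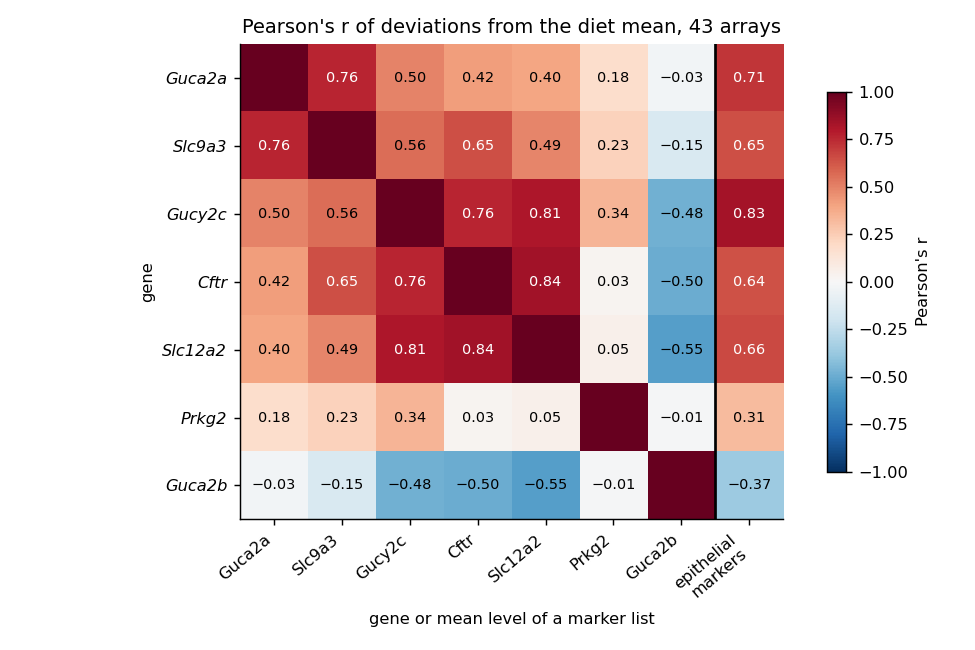
Pearson's r between the 7 genes, and of each with the mean level of epithelial markers, from deviations from the diet mean on 43 arrays. Gucy2c, Cftr and Slc12a2 form a block with r from 0.76 to 0.84, Guca2a is nearest to Slc9a3 (0.76), and Guca2b has r from -0.55 to -0.01 with every other gene.

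The genes most like each member in this variation were ranked among 10878 tested genes. For Guca2a they were Ndufa7, Mpc1, Sdhb, Uqcrfs1 and Hsd17b10, with r from 0.84 to 0.86; Ndufa7, Sdhb and Uqcrfs1 encode respiratory chain subunits, and Mpc1 encodes a carrier of pyruvate into mitochondria. For Guca2b they were Rhox9, Tmem86a, Chrne, Plpp7 and Taf15, with r of only 0.60 to 0.63. For Gucy2c they were Myo5b, a motor of apical membrane traffic, Efnb2, Pigr, the receptor that carries immunoglobulin A across the epithelium, Hook2 and St6galnac1 (r 0.91 to 0.94). For Cftr they were Specc1, Sh3yl1, Cask, Pdxdc1 and Slc5a8, a sodium-coupled carrier of short-chain fatty acids (r 0.86 to 0.87). For Slc12a2 they were Fnbp1l, Adgrg7, Arhgef12, Nckap1 and Pdxdc1 (r 0.89 to 0.91). For Slc9a3 they were Tm7sf3, Clec2e, the adenosine receptor gene Adora2b, Prss30 and the chloride channel gene Clcn2 (r 0.79 to 0.87). For Prkg2, ranked among 10879 genes, they were Gfod2, Alad, Mogs, B4galnt4 and Abhd17a, with r of 0.56 to 0.61. Within the axis, Guca2a had rank 10 in the order for Slc9a3, Slc12a2 had rank 18 in that for Cftr, and Guca2b had rank 6737 in that for Guca2a. B cell and epithelial marker levels were not taken out of the r behind these orders, and their part was not tested. Within diets these levels had r of -0.82 and 0.71 with Guca2a, -0.73 and 0.83 with Gucy2c, and 0.22 and -0.37 with Guca2b.

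A list of cyclic GMP makers, kinases and phosphodiesterases also held the related genes Nos1, Nos2, Nos3, Nppc, Npr3 and Abcc4. Of its 19 tested genes 12 differed over the 6 diets, where 30.8% of all genes tested did. In HAMS minus LAMS 1 was higher and 4 were lower, where 12% of all genes were lower, with a median difference of -0.33 against -0.09 over all genes. Npr2, the receptor for C-type natriuretic peptide, fell by 0.56 ± 0.12 (adjusted p 0.00591), the phosphodiesterase Pde3a by 0.56 ± 0.16 and the kinase Prkg1 by 0.69 ± 0.22. Prkg1 is the cyclic GMP kinase of smooth muscle, and smooth muscle markers averaged 10.76 ± 0.33 in HAMS and 11.07 ± 0.18 in LAMS; their part in these differences was not tested. In HAMSB minus HAMS 3 of 19 were higher, a share near the 14.3% of all genes. They were Npr2 (0.49 ± 0.11), Pde3a (0.58 ± 0.15) and the cyclic GMP phosphodiesterase Pde9a (0.62 ± 0.18). In HAMSB minus LAMS 0 of 19 passed in limma, where 6.78% of all genes did. In HAW minus HAMS 8 were higher and 1 lower, where 11% of all genes were higher, led by Npr2 (0.50 ± 0.11), the clearance receptor Npr3 (0.72 ± 0.18) and Pde3a (0.56 ± 0.16).

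Among scaffolds and regulators of these transporters, 9 of 16 tested genes differed over the diets, against 30.8% of all genes. In HAMSB minus LAMS 2 passed, where 6.78% of all genes did. Nherf1, which tethers CFTR and NHE3 at the apical membrane, rose by 0.36 ± 0.11 (adjusted p 0.0455), with 10.27 ± 0.19 in HAMSB and 9.91 ± 0.07 in LAMS, and the membrane fusion gene Snap23 fell by 0.40 ± 0.11. Against HAMS, 7 were higher in HAMSB and none lower, where 14.3% of all genes were higher, with a median of 0.32 against 0.07 over all genes. They included Nherf1 (0.46 ± 0.11), its relative Nherf2 (0.37 ± 0.09) and Chp2, a calcium-binding cofactor of sodium-proton exchangers (0.63 ± 0.16). In HAMS minus LAMS 3 were lower, where 12% of all genes were: Stk39, a kinase that activates NKCC1 (-0.47 ± 0.13), Stx3 (-0.40 ± 0.12) and Sgk1 (-0.51 ± 0.17). In HAW minus HAMS 3 were higher, where 11% of all genes were, namely Sgk1 (0.60 ± 0.17), Chp1 (0.32 ± 0.11) and Oxsr1, a kinase related to that of Stk39 (0.47 ± 0.16).

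Of other chloride, bicarbonate and proton transport genes, 6 of 17 tested differed over the diets, a share near the 30.8% of all genes. In HAMS minus LAMS 5 were lower, where 12% of all genes were, led by the anion exchanger Slc4a2 (-0.44 ± 0.11), Clcn2 (-0.70 ± 0.21) and the sodium-proton exchanger Slc9a8 (-0.39 ± 0.12), and the median was -0.38. In HAMSB minus HAMS 4 were higher, where 14.3% of all genes were, led by Slc4a2 (0.55 ± 0.10), the carbonic anhydrase Car12 (0.84 ± 0.18) and Clcn2 (0.81 ± 0.20). In HAW minus HAMS 7 were higher, where 11% of all genes were, led by Clca1 (0.45 ± 0.09), Car12 (0.73 ± 0.18) and Slc4a2 (0.37 ± 0.11). Clca1 was also in the list of goblet cell markers. In HAMSB minus LAMS 1 passed: Slc4a7, a sodium-bicarbonate cotransporter, fell by 0.56 ± 0.14 (adjusted p 0.0139), with 8.90 ± 0.22 in HAMSB and 9.46 ± 0.29 in LAMS. This was 1 of 17 tested genes, a share near the 6.78% of all genes that passed there. Slc12a2 of the axis fell in the same comparison, where 4.61% of all genes were lower.

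Potassium channels return the potassium that NKCC1 and the sodium pump bring in. Of 10 tested genes in a list of potassium channels, the sodium pump and related genes, 5 differed over the diets, against 30.8% of all genes. Of the 10, 4 were lower in HAMS minus LAMS, where 12% of all genes were. Kcne3 and Kcnq1, which together form the basolateral potassium channel of colonic crypts, fell by 0.87 ± 0.20 (adjusted p 0.00815) and 0.46 ± 0.15 (adjusted p 0.0367), together with Kcnk6 (-0.59 ± 0.17) and the pump regulator Fxyd4 (-0.67 ± 0.24), and the median of the list was -0.30. They rose by 0.90 ± 0.18 and 0.61 ± 0.14 in HAMSB minus HAMS, where Kcnk6 also rose and the pump subunit Atp1b3 fell by 0.44 ± 0.11; 16.8% of all genes passed there. Atp1b3 was the 1 gene of this list that passed in HAMSB minus LAMS (-0.39 ± 0.12, adjusted p 0.0383), where 6.78% of all genes did. In HAW minus HAMS Kcnq1 (0.48 ± 0.15) and Kcne3 (0.62 ± 0.19) were higher, 2 of 10 where 11% of all genes were.

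Of 6 aquaporins 1 differed over the diets, Aqp11 (adjusted p 0.0462), a smaller share than the 30.8% of all genes. None passed in HAMS minus LAMS or HAMSB minus LAMS, where 14.1% and 6.78% of all genes did. Aqp11 rose by 0.51 ± 0.13 in HAMSB minus HAMS, where 14.3% of all genes were higher. Aqp8, the water channel of surface colonocytes, rose there by 0.97 ± 0.34 (adjusted p 0.0428), with 9.41 ± 0.41 in HAMSB and 8.44 ± 1.11 in HAMS. Aqp11 also rose in HAW minus HAMS, by 0.38 ± 0.13 (adjusted p 0.0478), where 11% of all genes were higher. A further list covered other signals that act on secretion, such as acetylcholine and vasoactive intestinal peptide, and the cyclic AMP pathway. Of its 20 tested genes 11 differed over the diets, against 30.8% of all genes. In HAMS minus LAMS 3 of 20 were lower, a share near the 12% of all genes, with a median of -0.18 against -0.09 over all genes. They were Gnas (-0.27 ± 0.06), the muscarinic receptor Chrm3 (-0.65 ± 0.15) and the vasoactive intestinal peptide receptor Vipr1 (-0.47 ± 0.16). Set against HAMS, 7 were higher and 2 lower in HAMSB, where 14.3% of all genes were higher, with a median of 0.19, led by Gnas (0.26 ± 0.06), Vipr1 (0.67 ± 0.15) and Adora2b (0.83 ± 0.20). In HAMSB minus LAMS the cyclic AMP kinase subunits Prkacb (-0.59 ± 0.13, adjusted p 0.0122) and Prkar1a (-0.35 ± 0.08, adjusted p 0.0129) fell, and Sct, the gene of secretin, rose by 0.30 ± 0.10 (adjusted p 0.0488), 3 of 20 where 6.78% of all genes passed. Of the same 20, 5 were higher in HAW minus HAMS, where 11% of all genes were, led by Chrm3 (0.78 ± 0.14), Gnas (0.26 ± 0.06) and Prkar2a (0.46 ± 0.15). The B cell and epithelial marker levels given above stood beside all comparisons with HAMS. So did name style: all 8 HAMS arrays had the diet code first, against 3 of 7 LAMS, 5 of 9 HAMSB and 3 of 8 HAW arrays. The part of the marker levels and of name style in the counts of these lists was not tested.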

How the data were processed

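The authors deposited log2 expression values for 29214 probe sets, made from Affymetrix arrays with RMA per the submitters' processing notes; its version and any further step are not given in the sources used here. RMA corrects background and brings arrays to a shared distribution, which can hide shifts that affect most genes. Of the probe sets 15310 were listed with 1 symbol, 323 with several and 13581 with none. From the deposited log2 values, 1 probe set per symbol was taken (highest mean, 14506 symbols), and 10879 genes with a median of at least 4.77, the 25th percentile of those medians, were tested.

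Each of 6 diets had its own mean in a linear model (lmFit, then eBayes, of limma 3.58.1 under R 4.3.3), which gave the moderated F test and the 15 pairs of diets. Tests were two-sided, adjusted after Benjamini and Hochberg over all genes tested, with a threshold of 0.05; the fit was tested on simulated data. The ligands' difference was tested by exact permutation, and correlations with 100000 resamples within diets (scipy 1.17.1). Motifs were counted in the promoter windows of RefSeq GRCr8.

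The 7 genes, the pathway lists and the marker lists were chosen with earlier results of these data known. Of the 98 pathway genes listed, 88 were tested, 2 of them matched through a newer name. The rule named, per list, up to 4 genes in the F test and up to 3 in each pair described, by smallest p, and the 5 genes most like each member; the text prints part of those from the F test. The ranges of B cell marker level, the restriction to 1 name style and leaving out the 2 arrays of narrowest spread were chosen after seeing the data. Other alternatives were a filter left out or raised to the 50th percentile, every probe set, array weights, a robust prior with a trend, the diets compared alone, centred arrays, blocks by name style, number range and replicate number, and marker levels or array spread as covariates. Arrays have no read depth; their number and the signal over background limit precision. Each array is labelled as a separate rat, so p-values measure the spread between rats.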

Additional observations from a re-analysis of the deposited data

Results flagged for a closer look

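In 5 of the 42 groups of 4 to 10 arrays that were tested (7 genes in 6 diets), the highest or lowest array stood apart by Dixon's test at the 95% level, which chance gives in about 1 in 20 groups. Guca2b had 9.05 in LAMS replicate 5, where the other 6 LAMS arrays had 7.62 to 8.15; without this array the difference in HAMSB minus LAMS was 1.33. Gucy2c had 9.47 in LAMS replicate 4, against 9.92 to 10.19 in the other LAMS arrays; this array had the highest B cell marker level of its diet, 8.76. Cftr had 6.49 in HAW replicate 8, against 7.29 to 7.82 in the other HAW arrays; this array had the narrowest spread of values of all 43. Prkg2, below the floor on low signal, had 4.63 in HAW replicate 2, against 3.45 to 3.74 in the others, and 4.14 in CON replicate 3, against 3.53 to 3.57.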

How the results depend on the processing

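Of the 23 called differences between diets, all 23 kept their call without the filter, with the stricter filter, with a trended and robust prior, with array weights, with number range as a block and without the 2 arrays of narrowest spread; 22 kept it over all probe sets, 18 with centred arrays, 15 with the B cell level, 13 with the diets compared alone, 10 with the epithelial level, 10 with the array spread, 6 with name style as a block, and 3 of 15 within 1 name style. With name style and the B cell level together 7 did, and 2 reversed: Gucy2c (0.0149) and Slc12a2 (0.0753) in HAMS minus CON. The cause was not tested.

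In the F test 5 genes passed, against 2 with name style as a block, 2 with the array spread and 1 with name style and B cell level. In HAMS minus LAMS 3 passed, against 1 with the diets alone, 1 within 1 name style, and 0 with name style, epithelial level, array spread, or name style and B cell level. In HAMSB minus LAMS 2 passed, against 1 with name style and 0 within 1 name style. In HAMSB minus HAMS 4 passed, against 1 with the B cell level, 1 with the epithelial level and 2 with name style and B cell level. In HAW minus HAMS 3 passed, against 1 with the B cell level and 0 with the diets alone, name style, epithelial level, array spread, name style and B cell level, or 1 name style. In the comparison of amylose effects 0 passed, against 2 with array weights. Over the 15 pairs 23 calls became 35 with array weights, 14 with the diets alone, 8 with name style, 13 with the epithelial level, 10 with the array spread and 7 with name style and B cell level.

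Leaving out 1 array at a time gave 4 to 6 genes in the F test, 2 to 4 in HAMS minus LAMS, 1 to 3 in HAMSB minus LAMS, 2 to 5 in HAMSB minus HAMS, 1 to 4 in HAW minus HAMS, 0 in LAMS minus CON, LAW minus LAMS, HAW minus LAW and the comparison of amylose effects, and 16 to 27 calls over the pairs. The difference in change between the ligands then ran from 0.47 to 0.71 in HAMSB minus LAMS, 0.19 to 0.49 in HAMS minus LAMS, 0.12 to 0.42 in HAMSB minus HAMS, -0.50 to -0.19 in HAW minus HAMS, -0.55 to -0.29 in LAMS minus CON, -0.14 to 0.26 in LAW minus LAMS and -0.26 to 0.14 in HAW minus LAW; it changed sign without LAMS replicate 1 (-0.0353) or LAW replicate 1 (-0.1393) in LAW minus LAMS, and without LAW replicate 1 (0.1383) or HAW replicate 7 (0.0024) in HAW minus LAW.

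Arrays of the same replicate number in different diets did not deviate together in the median (r -0.05 over 94 pairs, against 0.02 over 671 pairs of different numbers). No link between arrays of the same number was shown, and a median cannot exclude one. With the replicate number as a block Guca2b kept its call in HAMSB minus LAMS (1.08, adjusted p 0.00786), and 6 of 23 calls passed no longer. With diet and name style means subtracted, r was -0.30 for Guca2a and Guca2b, 0.75 for Guca2a and Gucy2c, 0.73 for Guca2a and Cftr, 0.69 for Guca2a and Slc12a2, 0.78 for Cftr and Slc9a3 and 0.61 for Slc12a2 and Slc9a3. The epithelial level was not taken out of these r. Spearman's rho was 0.0109 for Guca2b and Prkg2, where r was -0.0128, and 0.31 for Gucy2c and Prkg2 (adjusted p 0.0687). Signal near background limits Prkg2.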
